A study of Mus musculus with 12 samples.

Results

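The Krüppel-like factors are zinc-finger transcription factors that share a DNA-binding end and bind GC-rich and CACCC-type elements in promoters, and they differ in the parts that recruit activators or repressors. Klf2 and Klf4 are known for quiescence in endothelial, immune and epithelial cells, Klf5 for proliferation of epithelial crypt cells, and Klf6, Klf10 and Klf9 for responses to injury, transforming growth factor beta and glucocorticoids, respectively. The transcripts of 9 of these genes, Klf2, Klf3, Klf4, Klf5, Klf6, Klf7, Klf9, Klf10 and Klf13, were followed in monolayers of MC38, a line from a mouse colon carcinoma. The 9 genes were named with earlier results of these arrays known, out of 18193 genes that had at least 1 probe set with a single gene symbol. The probe set of each gene was chosen by its mean RMA value over the 12 arrays, taking the highest, and every other probe set of the gene is described beside it. What follows is therefore a description of these genes, and a call is not independent evidence about the family.

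Cells received GDC-0623, an inhibitor of the kinases MEK that act between RAF and ERK, at 100 nM, or DMSO, its solvent, for 24 h or 72 h. Each of the 4 groups (solvent or drug, for the shorter or the longer time) held 3 biological replicates by the series' own description, and total RNA of each was hybridized to 1 Affymetrix mouse expression array. All groups are the same cell line, so the comparisons rest on 1 tumor line in culture, without host cells. The 24 h DMSO group is shared by the drug comparison at 24 h and the time comparison in DMSO, and the other groups are shared likewise. Values are RMA values on the log2 scale, so that a difference of 1 is a change to double the level. A difference was called where the Benjamini-Hochberg adjusted p of a limma fit over all 45037 probe sets was under 0.05, and each ± is the standard error of that fit. With 3 arrays a group, the number of arrays limits the precision, and the p-values measure the spread between these cultures.

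The arrays had medians between 4.63 and 4.69. Of the variance between arrays, 58.6% lay along the leading principal component, which placed both DMSO groups at 1 end. On it 72 h GDC-0623 replicate 1 lay at 77.4, beyond the other arrays of its group at 44.8 and 49.8. Epithelial markers were near the bottom of the range, with array means of the 6 genes between 4.02 and 4.16. Group means of Epcam lay between 5.34 and 5.62. The epithelial origin of a colon carcinoma was thus hardly visible in these markers. Of these 6, Krt8 alone was called at 72 h, lower by 0.40 with the drug (from 5.30 to 4.90), where 12.4% of all genes were called lower. The Krt8 call was lost without 72 h DMSO replicate 3 (limma adjusted p = 0.0559), and the mean of its probe sets was -0.32. Leukocyte markers (5 genes, 3.68 to 3.92) and endothelial markers (4 genes, 3.74 to 4.02) were as low, and none of these 9 genes was called by the drug. The fibroblast markers were Col1a1, Dcn, Lum and Pdgfra. Of these 4, 1 (Dcn) was called higher with the drug at 24 h and 3 at 72 h. The shares of all genes called higher were 13.3% and 13.8%. Pdgfra, at 8.93 against 8.75 at 24 h and 9.48 against 9.35 at 72 h, was called by the drug at neither time. Over time, 3 of the 4 markers were called higher in DMSO and 4 with the drug, where 8.41% and 5.79% of all genes were. Their array means lay between 5.94 and 6.09 in 24 h DMSO, 6.13 and 6.44 in 24 h GDC-0623, 6.59 and 6.71 in 72 h DMSO, and 7.99 and 8.33 in 72 h GDC-0623. The part of these markers in the results on the Klf genes was not tested. In RNA of whole cultures, a change in the share of cells that carry a transcript and a change in RNA per cell cannot be told apart.

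The promoters of the 4 genes that rose at both times are shown first, since these are the stretches next to the transcripts that moved. Each is the 250 bases before the start used in the RefSeq promoter table on GRCm38.p6, written 5′ to 3′ on the strand of the gene. For Klf2, Klf3 and Klf4 that start is the upstream end of the gene, and for Klf7 it is 956 bases inside that end. They are chr5:64803271-64803520 on the plus strand for Klf3, chr8:72318812-72319061 on the plus strand for Klf2, chr4:55532476-55532725 on the minus strand for Klf4 and chr1:64121390-64121639 on the minus strand for Klf7. Capitals mark matches to the core of a Krüppel-like factor element, CCNCNCCC on either strand, where overlapping matches run together, and in Klf2 also a match to the MEF2 element, CTAAATTTAG.
Klf3: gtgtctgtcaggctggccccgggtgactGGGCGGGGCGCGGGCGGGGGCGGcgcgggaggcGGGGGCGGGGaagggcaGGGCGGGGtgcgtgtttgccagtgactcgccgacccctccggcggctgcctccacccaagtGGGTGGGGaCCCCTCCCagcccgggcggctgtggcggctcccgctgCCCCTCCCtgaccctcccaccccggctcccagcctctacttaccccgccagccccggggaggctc
Klf2: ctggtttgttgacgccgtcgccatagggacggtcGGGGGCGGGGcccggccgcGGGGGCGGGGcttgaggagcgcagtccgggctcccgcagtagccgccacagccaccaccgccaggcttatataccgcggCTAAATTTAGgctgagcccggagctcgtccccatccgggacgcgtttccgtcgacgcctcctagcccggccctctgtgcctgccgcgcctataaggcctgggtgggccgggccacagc
Klf4: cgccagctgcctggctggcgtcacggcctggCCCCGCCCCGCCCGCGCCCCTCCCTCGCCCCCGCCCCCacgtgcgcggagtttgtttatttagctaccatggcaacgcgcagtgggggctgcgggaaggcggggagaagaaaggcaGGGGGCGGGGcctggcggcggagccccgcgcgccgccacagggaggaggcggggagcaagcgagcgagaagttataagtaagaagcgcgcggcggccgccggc
Klf7: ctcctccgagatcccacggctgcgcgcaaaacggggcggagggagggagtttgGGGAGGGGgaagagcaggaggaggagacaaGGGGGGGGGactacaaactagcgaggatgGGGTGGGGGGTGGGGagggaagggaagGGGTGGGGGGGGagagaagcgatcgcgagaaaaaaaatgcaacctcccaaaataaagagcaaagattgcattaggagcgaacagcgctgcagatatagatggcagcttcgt

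The CCNCNCCC core was matched 10 times in the Klf3 promoter, 4 times in Klf2, 9 times in Klf4 and 8 times in Klf7. Klf13 held 5 matches and Klf6 held 2, and Klf9 held none. Promoters were found for 7 of the 9 genes, and 6 of those 7 held the core, which 45.9% of 32851 promoters of this length also held. The MEF2 element was matched in Klf2 alone of the 7, at bases 118 to 109 before the start, and in 2.92% of all promoters. The searched AP-1 (TGANTCA, 6.75% of all promoters), FOXO (GTAAACA, 3.17%) and STAT (TTCNNNGAA, 7.02%) letters were each matched in Klf9 alone of the 7. The CRE (TGACGTCA, 1.55%), ETS (CCGGAA, 12%) and CArG box (1.47%) letters were matched in none of the 7. All were searched on both strands, and a match is a description of the sequence, not a site that was seen to be bound.

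The first question was how the 9 transcripts stood after a day with the inhibitor. At 24 h, 6 of the 9 genes were higher with GDC-0623 (Klf2, Klf3, Klf4, Klf7, Klf9 and Klf13), 1 was lower (Klf5) and 2 were not called (Klf6 and Klf10). Among all genes 13.3% were called higher and 8.23% lower. The median difference of the 9 genes was 0.56, against -0.03 over all genes. The 9 genes had means from 6.86 to 10.68 over the 12 arrays, while all genes include many with a mean under 6. At 72 h, 4 of the 9 were higher (Klf2, Klf3, Klf4 and Klf7), 1 was lower (Klf5) and 4 were not called, against 13.8% of all genes called higher and 12.4% lower. Their median difference was then 0.39, against -0.03 over all genes. Without overlap between the groups, 6 lay higher and 1 lower at 24 h, and 5 higher and 1 lower at 72 h. Among all genes the groups were apart in this way with the drug higher for 21.2% at 24 h and 21.3% at 72 h, and lower for 20% and 23.7%.

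When the arrays were scaled by their hybridization controls in place of RMA alone, the median of all genes at 24 h rose by 0.167, and 17.9% of genes were called higher and 1.89% lower. The 9 genes still gave 6 higher and 1 lower at 24 h, and 4 higher and 1 lower at 72 h. The plot of both drug comparisons shows the 9 differences side by side.

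**Figure D1:**
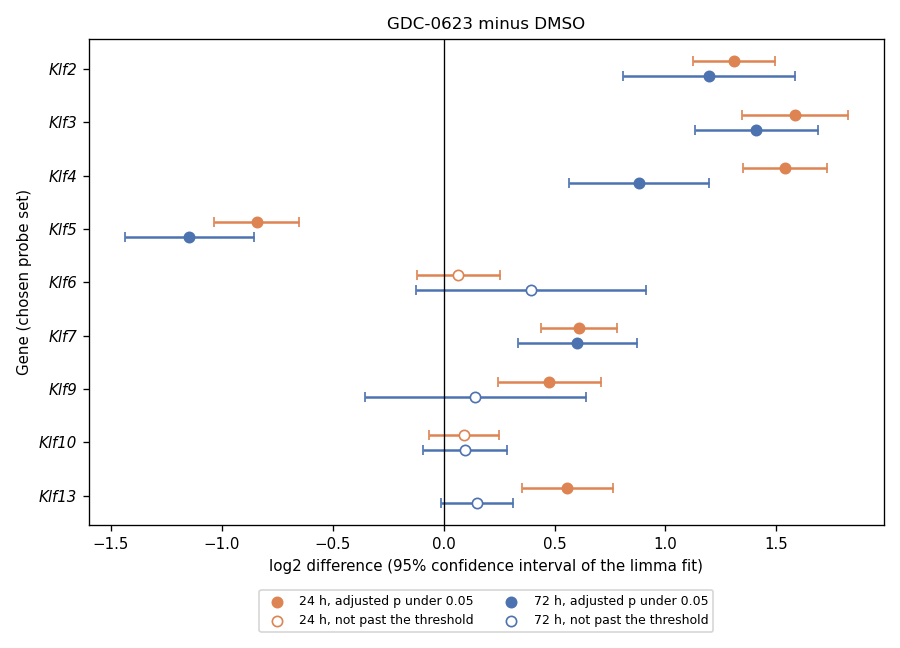
Difference between GDC-0623 and DMSO (x axis, log2 scale) for the chosen probe set of each gene (y axis), at 24 h (orange) and 72 h (blue), with the 95% confidence interval of the limma fit as bars and filled points where the adjusted p was under 0.05. Klf3 at 1.58 and Klf4 at 1.54 lie farthest right at 24 h, and Klf5 lies left of 0 at both times.

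Klf3, a repressor that recruits the corepressor CtBP, showed the largest 24 h difference among the chosen probe sets, though the mean of all its probe sets gave a smaller one than for Klf4 or Klf2. Its gene lies on chromosome 5 from 64803521 to 64832901 (GRCm38.p6). Probe set 1454666_at read 8.49, 8.56 and 8.37 in 24 h DMSO and 10.27, 10.04 and 9.86 in 24 h GDC-0623. Each treated array was above each control array. The difference was 1.58 ± 0.11, a 3.00-fold rise (limma adjusted p = 2.18e-05). At 72 h it read 8.72, 8.81 and 8.72 in DMSO and 10.45, 9.95 and 10.08 with GDC-0623, again without overlap. That difference was 1.41 ± 0.12 (2.66-fold, limma adjusted p = 1.12e-04).

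Klf3 had 6 further probe sets, and they did not all show the same size of change. Probe sets 1429360_at (1.30 at 24 h, 1.39 at 72 h) and 1421604_a_at (1.14 and 0.88) were called higher at both times, the latter by less than the chosen probe set at 72 h. Probe set 1431630_a_at was also called at both times, at 0.37 and 0.32, but missed the threshold when any 1 of 5 of the 6 arrays was left out (adjusted p up to 0.0716 at 24 h and 0.122 at 72 h). Probe set 1441200_at was called at 72 h, at 0.28 (adjusted p = 0.0464), and its 24 h value of 0.12 was not called. The other 2 probe sets, 1458487_at and 1442920_at, were called at neither time. The mean of all 7 probe sets, the dim ones included, differed by 0.65 at both times and stayed called.

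Klf4, known for cell-cycle arrest in gut epithelium and as a reprogramming factor, rose with the drug at both times and with time in the solvent. The gene spans 55527137 to 55532475 on chromosome 4. Probe set 1417394_at read 9.60, 9.54 and 9.49 in 24 h DMSO, and 11.24, 10.99 and 11.02 in 24 h GDC-0623. At 72 h the DMSO arrays read 10.63, 10.67 and 10.54, and the GDC-0623 arrays 11.83, 11.43 and 11.22. The 4 groups did not overlap between drug and solvent at either time, and the 72 h DMSO arrays lay between both 24 h groups. The drug difference was 1.54 ± 0.08 at 24 h (2.91-fold, limma adjusted p = 9.54e-06) and 0.88 ± 0.14 at 72 h (1.84-fold, limma adjusted p = 0.00242). The 72 h DMSO arrays were 1.07 ± 0.07 above the 24 h ones (limma adjusted p = 9.08e-05).

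The difference between the drug effects of Klf4, 72 h less 24 h, was -0.66 ± 0.18 with a 95% interval from -1.04 to -0.28, and missed the threshold over all probe sets (limma adjusted p = 0.0759). The second probe set, 1417395_at, read 1.37 at 24 h and 1.14 at 72 h, both called, with a difference of effects of -0.23 (adjusted p = 0.564). Leaving out 72 h GDC-0623 replicate 1 gave -0.83 for the chosen probe set, which passed (adjusted p = 0.00402).

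Klf2, which in endothelium follows flow through the ERK5 kinase and MEF2 factors and in lymphocytes holds cells at rest, had 1 probe set, 1448890_at. The gene spans 72319062 to 72321654 on chromosome 8. It read 9.12, 8.99 and 9.06 in 24 h DMSO and 10.51, 10.32 and 10.27 in 24 h GDC-0623. After 72 h its values were 9.48, 9.28 and 8.92 in DMSO and 10.73, 10.39 and 10.15 with the drug. The drug arrays lay above the solvent arrays at both times, and the 72 h groups were spread more widely than the 24 h groups. The difference was 1.31 ± 0.08 at 24 h (2.48-fold, limma adjusted p = 1.66e-05) and 1.20 ± 0.17 at 72 h (2.29-fold, limma adjusted p = 0.00141).

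Klf7, described in neuron and fat cell differentiation, rose less but on every probe set. The gene spans 64029448 to 64122345 on chromosome 1. Probe set 1419354_at read 7.95, 7.86 and 8.02 in 24 h DMSO and 8.53, 8.49 and 8.64 in 24 h GDC-0623. The 72 h values were 8.12, 7.90 and 7.95 in DMSO and 8.79, 8.35 and 8.64 with the drug. The groups did not overlap at either time. The difference was 0.61 ± 0.08 at 24 h (limma adjusted p = 6.48e-04) and 0.60 ± 0.12 at 72 h (limma adjusted p = 0.00688). The other 3 probe sets were called higher at both times, between 0.73 and 0.95 at 24 h and between 0.66 and 0.85 at 72 h.

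Klf5 was the member that fell. It is a growth-linked activator of crypt epithelium whose gene spans 99298691 to 99313412 on chromosome 14. Probe set 1451021_a_at read 7.62, 7.53 and 7.70 in 24 h DMSO and 6.63, 6.83 and 6.86 in 24 h GDC-0623. After 72 h the values were 7.18, 7.09 and 7.05 in DMSO and 5.65, 6.17 and 6.06 with the drug. Every treated array was below every control array of its time. The difference was -0.84 ± 0.08 at 24 h (1.79-fold lower, limma adjusted p = 1.96e-04) and -1.15 ± 0.13 at 72 h (2.21-fold lower, limma adjusted p = 4.02e-04). It also fell with time, by 0.51 in DMSO (adjusted p = 0.00376) and by 0.81 with the drug (adjusted p = 0.0078). The other 2 probe sets of Klf5 were dim and were called in no comparison, and with them averaged in, the drug differences were -0.25 and -0.45, both still called.

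**Figure D2:**
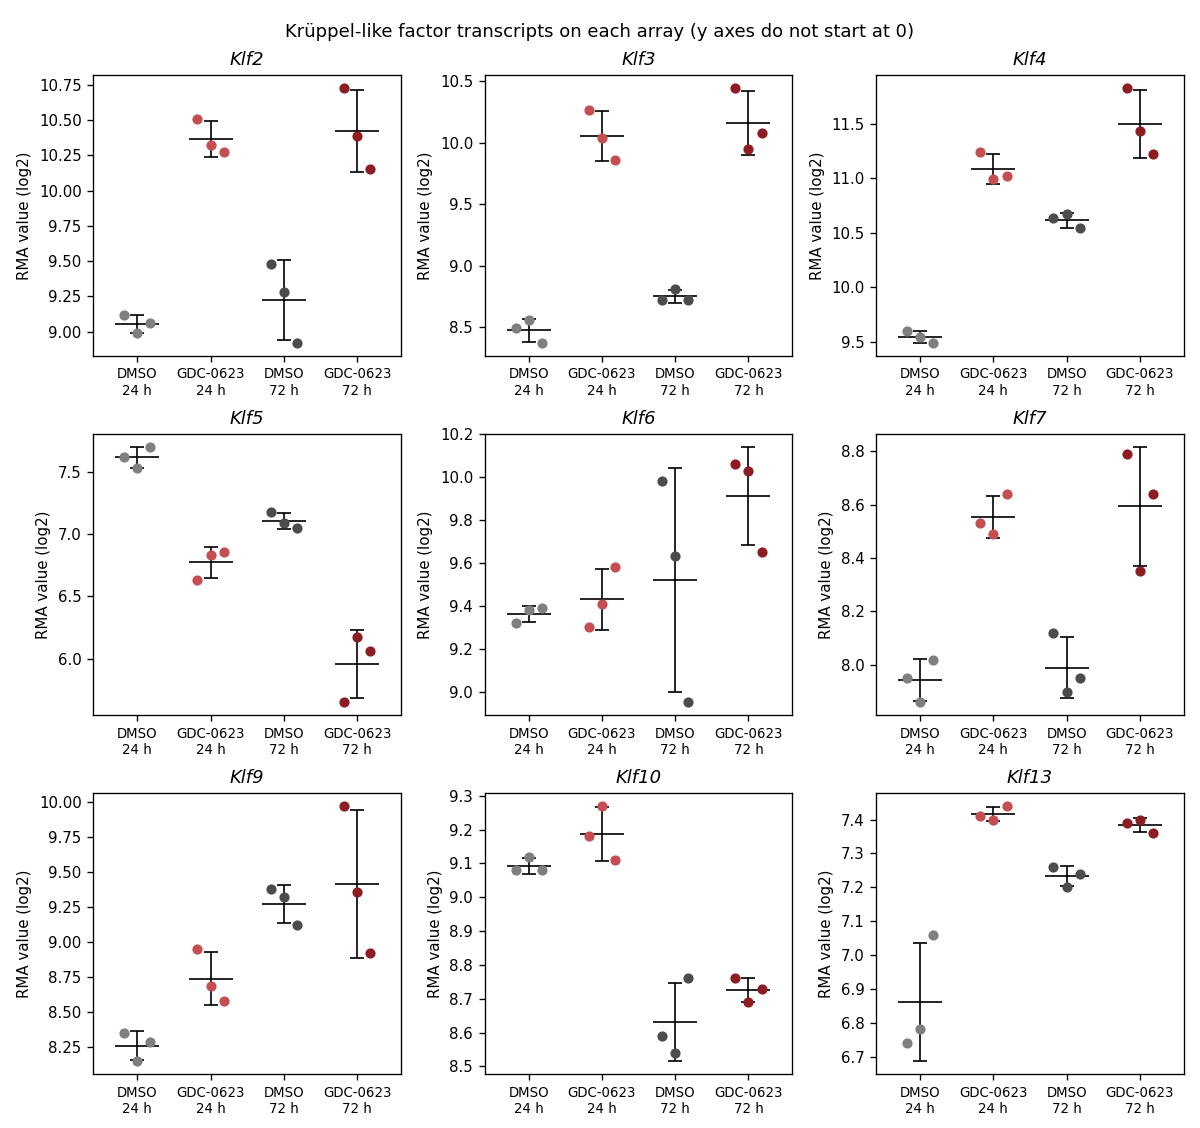
RMA value (y axis, log2 scale, not starting at 0) of the chosen probe set of each gene on every array, by group (x axis), with the group mean as a line and 1 SD as bars (n = 3). Klf2, Klf3, Klf4 and Klf7 lie higher with GDC-0623 at both times, Klf5 lies lower, and the 72 h DMSO arrays of Klf6 spread from 8.95 to 9.98.

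Klf9 and Klf13 were called at 24 h and not at 72 h. Klf9, a glucocorticoid-induced repressor whose gene spans 23141226 to 23168129 on chromosome 19, read 8.35, 8.15 and 8.29 in 24 h DMSO and 8.95, 8.69 and 8.58 in 24 h GDC-0623 (probe set 1456341_a_at). The 72 h arrays gave 9.38, 9.32 and 9.12 in DMSO and 9.97, 9.36 and 8.92 with the drug. The 24 h groups were apart, while the 72 h groups overlapped and the drug group spread from 8.92 to 9.97. The difference was 0.48 ± 0.10 at 24 h (1.39-fold, limma adjusted p = 0.0118) and 0.14 ± 0.22 at 72 h (limma adjusted p = 0.725), with a 95% interval from -0.35 to 0.64. Without 72 h GDC-0623 replicate 1 the 72 h value turned to -0.13, and with all 12 arrays in 1 fit the 24 h call was lost (adjusted p = 0.121). Of its 6 other probe sets, 4 were called higher at 24 h, between 0.28 and 0.57, and none at 72 h. The smallest of these rises was on a dim probe set, 1422264_s_at, with means of 4.36 in DMSO and 4.64 with the drug. In the fit of all 12 arrays 3 of these 4 calls were lost as well (adjusted p of 0.0911 to 0.312). That the drug effects of Klf9 differ between the times was not shown, with a difference of -0.33 (adjusted p = 0.638).

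Klf13, a regulator of Ccl5 in lymphocytes, lies on chromosome 7 from 63886351 to 63938915. Probe set 1436316_at read 6.74, 6.78 and 7.06 in 24 h DMSO and 7.41, 7.40 and 7.44 in 24 h GDC-0623. At 72 h it read 7.26, 7.20 and 7.24 in DMSO and 7.39, 7.40 and 7.36 with the drug. The groups were apart at both times, by much less at 72 h. The difference was 0.56 ± 0.09 at 24 h (1.47-fold, limma adjusted p = 0.00288) and 0.15 ± 0.07 at 72 h (limma adjusted p = 0.191). The difference of the effects was -0.41 ± 0.11 (limma adjusted p = 0.0921).

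A second probe set of Klf13, 1432543_a_at, read 6.51, 6.51 and 6.54 in 24 h DMSO, 7.17, 7.04 and 7.10 in 24 h GDC-0623, 7.26, 7.07 and 7.06 in 72 h DMSO, and 7.16, 7.12 and 7.20 in 72 h GDC-0623. Only the 24 h DMSO arrays stood apart, below the other 3 groups. Its drug difference was 0.58 at 24 h (adjusted p = 4.52e-04) and 0.03 at 72 h (adjusted p = 0.858). The difference of these effects was -0.55 and was called (limma adjusted p = 0.0102), where 2.21% of all probe sets were called in either direction. It was the 1 call in this comparison among the 33 probe sets of the 9 genes, and the third probe set, 1456030_at, was called in no comparison.

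Klf6 and Klf10 were not called in either drug comparison on their chosen probe sets, and in Klf6 the choice of probe set decided this at 24 h. Klf6, an injury-response factor on chromosome 13 from 5861489 to 5870393, read 9.32, 9.38 and 9.39 in 24 h DMSO and 9.30, 9.41 and 9.58 in 24 h GDC-0623 on 1427742_a_at. The groups overlapped, and the difference was 0.07 ± 0.08 (limma adjusted p = 0.654). The next probe set, 1433508_at, had nearly the same mean over the 12 arrays, 9.54 against 9.56, and read 8.97, 9.10 and 9.03 in DMSO and 9.47, 9.56 and 9.49 with the drug. There the arrays were apart, by 0.47 (limma adjusted p = 0.00161). The other 3 probe sets were called as well, between 0.31 and 0.40, so that 4 of 5 were called higher at 24 h, where 9.29% of all probe sets were. The smallest of these rises was on a dim probe set, 1459718_x_at, with means of 3.99 in DMSO and 4.30 with the drug. With the mean of the 5 probe sets in place of 1, Klf6 was called at 24 h, at 0.33 (adjusted p = 0.00227). With 1 fit over all 12 arrays none of the 5 was called at 24 h.

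At 72 h Klf6 read 9.98, 9.63 and 8.95 in DMSO and 10.06, 10.03 and 9.65 with the drug. The groups overlapped, and 72 h DMSO replicate 3 was the lowest array of its group on this probe set and on 1433508_at, 1447448_s_at and 1418280_at. The difference was 0.39 ± 0.23 (limma adjusted p = 0.293), with a 95% interval from -0.13 to 0.91, and none of the 5 probe sets was called. Without that array the difference was 0.11.

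Klf10, the early response gene of transforming growth factor beta, had 1 probe set, 1416029_at, and lies on chromosome 15 from 38291464 to 38300711. It read 9.08, 9.12 and 9.08 in 24 h DMSO and 9.18, 9.27 and 9.11 in 24 h GDC-0623. The 72 h arrays read 8.59, 8.54 and 8.76 in DMSO and 8.76, 8.69 and 8.73 with the drug. The drug and solvent groups overlapped at both times, while every 72 h array was below every 24 h array. The drug difference was 0.09 at 24 h, with a 95% interval from -0.06 to 0.25, and 0.10 at 72 h, with an interval from -0.09 to 0.29 (limma adjusted p = 0.427 and 0.495).

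**Figure D3:**
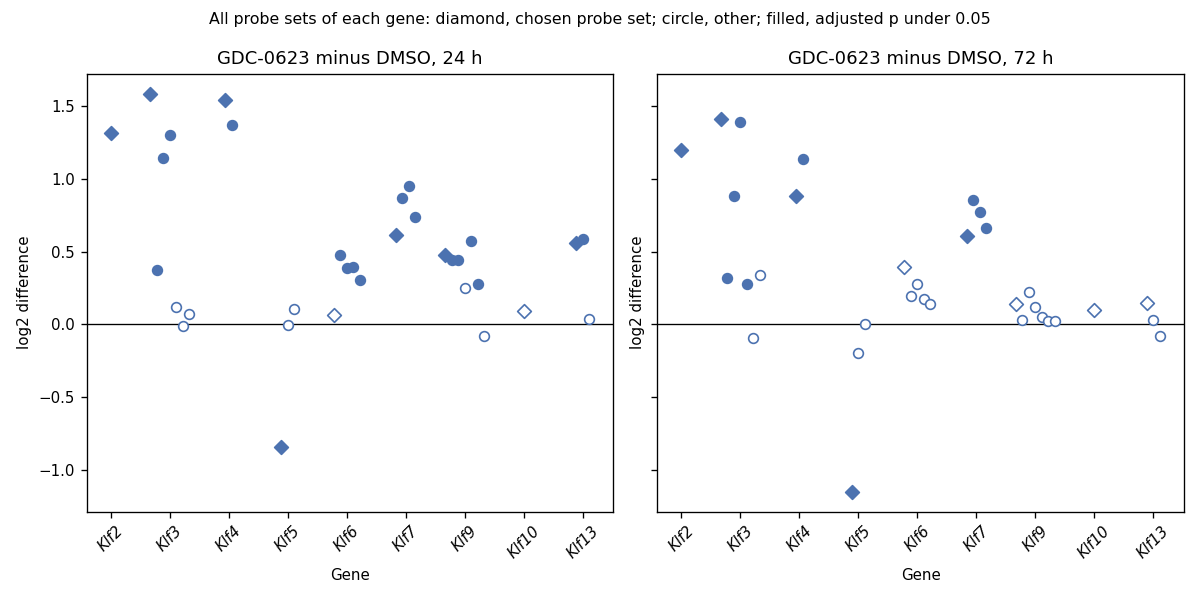
Difference between GDC-0623 and DMSO (y axis, log2 scale) of every single-symbol probe set of the 9 genes (x axis) at 24 h (left) and 72 h (right), as diamonds for the chosen and circles for the other probe sets, filled where the adjusted p was under 0.05. Of the 24 other probe sets 16 were called higher at 24 h and 8 at 72 h, and the 4 circles of Klf6 are filled at 24 h beside an open diamond.

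Over all 24 probe sets that were not chosen, 16 were called higher at 24 h and 8 at 72 h, and none was called lower. Of all probe sets on the array, 9.29% were called higher at 24 h and 10.1% at 72 h. In 1 fit over all 12 arrays the count was 9 at each time, the 7 calls lost at 24 h being 4 of Klf6 and 3 of Klf9. Probe sets of 1 gene read the same RNA and are not separate evidence. For Klf5, the only member that fell, the 2 other probe sets lay in the background range and neither bore on the direction.

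The question of whether the drug effect differed between the times was put to all 12 arrays. None of the 9 genes was called for the difference of the effects, where 3.08% of all genes were. Before adjustment, Klf4 and Klf13 were under 0.05 in limma, 2 of the 9, which is near the share of all genes, 17.1%. Both values were negative, meaning a smaller difference at 72 h. Intervals of the other genes were wide, from -0.56 to 0.33 for Klf2, from -0.55 to 0.20 for Klf3 and from -0.66 to 0.05 for Klf5, so equal effects were not shown either.

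Time in culture was the other comparison of the design. In DMSO, 4 of the 9 genes were higher at 72 h than at 24 h (Klf3, Klf4, Klf9 and Klf13) and 2 were lower (Klf5 and Klf10), where 8.41% of all genes were higher and 5.14% lower. Klf4 rose 2.10-fold and Klf9 2.01-fold (1.01 ± 0.09, limma adjusted p = 4.83e-04), and 5 of the 6 other probe sets of Klf9 rose with it, between 0.62 and 1.08, where 6.55% of all probe sets were called higher. Klf10 fell by 0.46 (limma adjusted p = 0.00627). The rise of Klf13 was 0.37 (adjusted p = 0.034) and that of Klf3 0.28 (adjusted p = 0.0425). Both were small, the Klf3 call was lost when any 1 of the 6 arrays was left out (adjusted p from 0.056 to 0.137), and the Klf13 call was lost for 5 of the 6 arrays (the highest adjusted p was 0.112).

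The chosen probe set of Klf6 was at 0.16 in DMSO, not called (adjusted p = 0.71), while 1433508_at rose by 0.68 (adjusted p = 0.0272) and 1447448_s_at by 0.73 (adjusted p = 0.0118). Klf2 at 0.17 and Klf7 at 0.05 were not called. With GDC-0623, 1 gene was higher at 72 h than at 24 h (Klf6, 0.48, limma adjusted p = 0.0475) and 2 were lower (Klf5 by 0.81 and Klf10 by 0.46), where 5.79% of all genes were higher and 3.11% lower. Without 24 h GDC-0623 replicate 2 the count fell from 3 to 1, as Klf6 (adjusted p = 0.157) and Klf10 (adjusted p = 0.0533) missed the threshold. Klf6 missed it for 5 of the 6 arrays left out in turn. Klf4 at 0.41 (adjusted p = 0.126) and Klf9 at 0.68 (adjusted p = 0.103) were not called. In 1 fit over all 12 arrays both were called, at adjusted p = 0.041 and 0.0318. Klf10 was lower at 72 h by nearly the same amount in DMSO and with the drug, -0.46 in each.

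**Figure D4:**
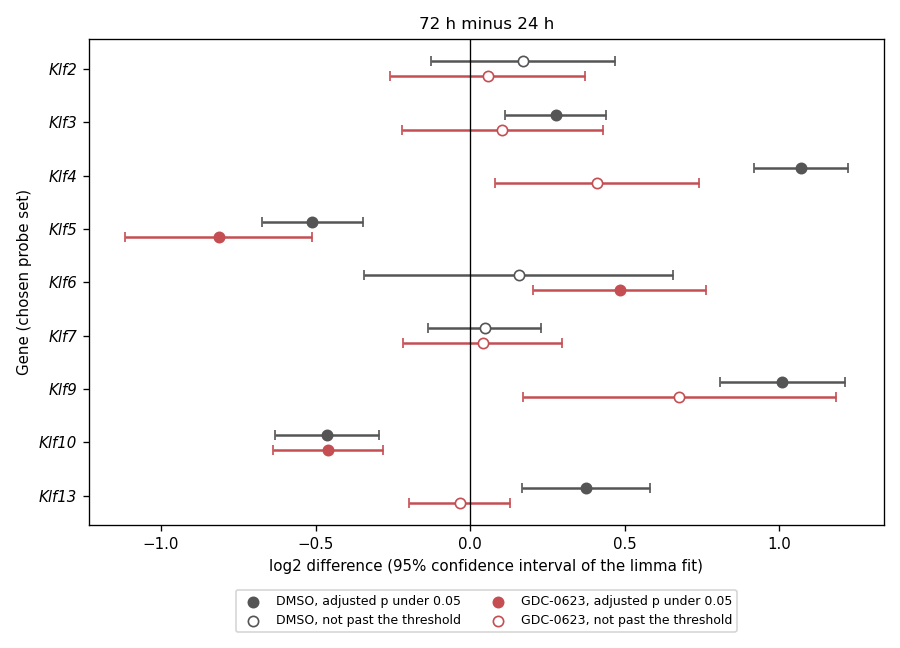
Difference between 72 h and 24 h (x axis, log2 scale) for the chosen probe set of each gene (y axis), in DMSO (grey) and with GDC-0623 (red), with the 95% confidence interval of the limma fit as bars and filled points where the adjusted p was under 0.05. Klf4 at 1.07 and Klf9 at 1.01 lie farthest right in DMSO, and Klf5 and Klf10 lie left of 0 in both.

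Of 17 other genes of the KLF and SP family, 14 had a probe set, and 10 of these had a mean under 6, near the background range. At 24 h 2 were higher and 1 was lower, where 13.3% of all genes were higher and 8.23% lower, and at 72 h 1 was higher and 1 lower, where 13.8% and 12.4% were. Klf11, a repressor close to Klf10, read 5.98, 5.89 and 6.15 in 24 h DMSO and 7.03, 6.91 and 6.77 with the drug, a rise of 0.90 (limma adjusted p = 2.55e-04). At 72 h it read 7.14, 6.97 and 6.69 in DMSO and 7.40, 7.48 and 6.64 with the drug, groups that overlapped. Its difference was then 0.24 (adjusted p = 0.5), and in DMSO it rose by 0.93 with time. Klf16, a repressor, fell by 0.36 at 72 h (adjusted p = 0.0256). Klf12, a CtBP-recruiting repressor like Klf3, was named after its values were seen since it lay under 6. It rose by 1.05 at 24 h and 0.62 at 72 h, and the mean of its probe sets by 0.41 and 0.39. Sp5, also under 6 and named for the same reason, fell by 0.29 at 24 h, a call lost under 10 of 12 alternatives. The broadly active Sp1 (0.02 and -0.04) and Sp3 (0.11 and -0.01) were not called.

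Among 17 genes for proteins that act upstream of Klf genes, 7 were higher and none was lower at 24 h, and 3 were higher and 1 lower at 72 h. Of all genes, 13.3% were higher and 8.23% lower at 24 h, and 13.8% and 12.4% at 72 h. The medians of the list were 0.19 and 0.12, against -0.03 over all genes at each time. Several values were smaller when all probe sets of the gene were averaged, and some of these averages are given in parentheses or beside them. Mef2c, a transcription factor that drives Klf2 in endothelium, rose by 1.02 at 24 h (limma adjusted p = 1.40e-04) and 0.81 at 72 h, and its relative Mef2a by 0.44 at 24 h (mean of its probe sets, 0.28). Tgfbr2, the type II receptor of transforming growth factor beta, rose by 1.07 at 24 h and 1.40 at 72 h (mean of its probe sets, 0.45 and 0.82). The type I receptor gene Tgfbr1 fell by 0.34 at 72 h, where the mean of its probe sets was -0.15 and not called (adjusted p = 0.219). Elk1, an ETS factor downstream of ERK, rose by 0.44 at 24 h, where the mean of its probe sets was 0.18 and not called (adjusted p = 0.136). The forkhead factors Foxo1 (0.30) and Foxo3 (0.28) were called at 24 h. The mean of the Foxo3 probe sets was 0.22 and not called (limma adjusted p = 0.087). The lowest value of Foxo1 over the alternatives was 0.20. The glucocorticoid receptor gene Nr3c1 was called at both times (0.24 and 0.34), and the mean of its probe sets gave -0.01 at 24 h. Map2k5 and Mapk7, which encode the kinases of the ERK5 pathway, were not called (0.13 and 0.19 at 24 h).

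Of 11 corepressors and coactivators that Klf proteins use, 1 was higher and 1 lower at each time, where 13.3% and 8.23% of all genes were at 24 h and 13.8% and 12.4% at 72 h. Kat2b, an acetyltransferase, rose by 0.64 at 24 h (limma adjusted p = 2.53e-04) and 1.10 at 72 h (limma adjusted p = 1.17e-04). The mean of its probe sets was 0.40 at 24 h and 0.75 at 72 h. Ctbp2, a corepressor bound by Klf3, fell by 0.40 at 72 h (adjusted p = 0.0206), and Fhl3, with a level under 6 and named after its values were seen, was the lower gene at 24 h (-0.23), a call lost under 10 of 12 alternatives. Of 8 ubiquitin ligases described for Klf proteins, 2 were higher at 24 h and 1 at 72 h, against the same shares of all genes. They were Smurf1 at 24 h (0.30, adjusted p = 0.0139), Fbxo32 at 24 h (0.33, under 6 and named after its values were seen) and Vhl at 72 h (0.29, adjusted p = 0.0335). The Fbxo32 call was lost with the mean of its probe sets (0.31, limma adjusted p = 0.111). It was also lost when some single arrays were left out (adjusted p up to 0.0795).

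Of 20 described targets of Klf proteins, 18 had a probe set, and 5 were higher and 2 lower at 24 h, and 5 were higher and 4 lower at 72 h. Of all genes, 13.3% were higher and 8.23% lower at 24 h, and 13.8% and 12.4% at 72 h. The medians of the list were 0.08 and -0.01. S1pr1, the lymphocyte egress receptor and a Klf2 target in T cells, read 4.93, 4.65 and 4.74 in 24 h DMSO and 7.08, 6.70 and 6.46 with the drug, a difference of 1.97 (limma adjusted p = 3.50e-05). At 72 h it read 5.23, 4.75 and 5.17 in DMSO and 8.02, 7.34 and 7.16 with the drug, a difference of 2.46 (limma adjusted p = 1.06e-04). The groups were far apart at both times, from a low solvent level. Ccl5, a chemokine gene bound by Klf13 in T cells, rose by 0.92 at 24 h and 1.46 at 72 h. Cdkn1b, which encodes the cell cycle inhibitor of the Cip/Kip kind, rose by 0.88 and 1.06 (mean of its probe sets at 24 h, 0.52).

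Ccnd1, the gene of a cyclin of early cell cycle, fell by 0.66 at 24 h and 0.65 at 72 h. Without 72 h GDC-0623 replicate 1 the 72 h value of Ccnd1 was -0.39, and the call was lost without any 1 of the 72 h DMSO arrays (adjusted p up to 0.112). Odc1, the first enzyme of polyamine synthesis, fell by 0.57 and 0.94. Pdgfa, a growth factor gene, fell by 0.31 at 72 h (adjusted p = 0.0305). Cdkn1a, the cell cycle inhibitor gene that Klf4 activates, read 7.60, 7.57 and 7.68 in 24 h DMSO, 8.31, 7.92 and 8.02 in 24 h GDC-0623, 8.57, 8.64 and 8.66 in 72 h DMSO and 8.36, 8.31 and 8.05 in 72 h GDC-0623. The drug arrays were above the solvent arrays at 24 h and below them at 72 h. Its differences were 0.47 (adjusted p = 0.0121, 0.28 with the mean of its probe sets) and -0.38 (adjusted p = 0.0212), and their difference of -0.85 was called (limma adjusted p = 0.00677). The 72 h value alone missed the threshold under 4 of 13 alternatives, each with 1 array of that time left out (adjusted p from 0.05 to 0.0742). Lgals3, the gene of a galectin, rose by 0.60 at 24 h and was at -0.21 at 72 h. Thbd and Col1a1 were called higher at 72 h from levels under 6 (0.97 and 0.91), and were named after their values were seen. Without 72 h GDC-0623 replicate 1 the Thbd value was 0.57, still called. The Thbd call was lost without any 1 of the 72 h DMSO arrays (limma adjusted p up to 0.123). It was also lost without 72 h GDC-0623 replicate 2 (adjusted p = 0.0525) and with another variance prior (adjusted p = 0.0586).

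For the 3 members with the largest 24 h differences, the genes with the most similar pattern were found among 9132 genes with a mean of at least 6. The measure was the root mean square of the difference between centred log2 values over the 12 arrays. The nearest to Klf3 were Afap1 (0.106), Serpinb9 (0.114) and Lxn (0.144). The values of Klf3 lay 0.769 from their own mean on the same measure. Afap1 differed by 1.39 at 24 h and 1.40 at 72 h, and Serpinb9 by 1.58 and 1.36. The nearest to Klf4 were Pcdhb20 (0.130), Hsd3b7 (0.175) and Psd3 (0.179), against 0.742 for Klf4 itself. The nearest to Klf2 were Tcta (0.166), Palld (0.167) and Tanc2 (0.169), against 0.654 for Klf2 itself. These genes were picked for their likeness, which is given as a description.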

How the data were processed

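Total RNA of 12 MC38 cultures was labelled with a 3′ IVT kit and hybridized to 1-color arrays. The authors deposited log2 values made by RMA (background correction, quantile normalization and probe summary), rounded to 2 decimals. RMA was named without a version, in the submitters' processing notes. The deposited log2 values were used as they stood. RMA sets the arrays to like distributions, so a shift shared by most transcripts would not be seen.

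Of 45101 probe sets, 64 were array controls and were not tested. Among the other 45037, 34945 carried 1 gene symbol in the platform annotation, 932 several and 9160 none, and 34741 of the 34945 matched a RefSeq symbol. Each comparison was fitted with limma 3.58.1 (lmFit and eBayes, R 4.3.3) on the arrays of its groups, the difference of effects on all 12, with Benjamini-Hochberg adjustment over the 45037 probe sets and a threshold of 0.05. The fit was tested on simulated data, and the outcome is not given here. The methods name an empirical Bayes test of the Chipster software, for which limma was used here. The members and gene lists were chosen with earlier results of these data known. Beyond the 9 members, a list gene was named where it passed the threshold in a drug comparison with a mean of at least 6 in the higher group. Named outside this rule, with their values seen, were Klf12, Sp1, Sp3, Sp5, Map2k5, Mapk7, Fhl3, Fbxo32, Thbd, Col1a1, Pdgfra, Epcam and Krt8. Promoters were printed for members called higher in both drug comparisons, and the 3 genes most alike were named for the 3 members with the largest 24 h differences. Sequences are from RefSeq (GRCm38.p6). The alternatives were a joint fit of the 4 groups, a block on the replicate number, dropping dim probe sets (at least 5 on at least 3 arrays, 21583 kept), a second quantile normalization, a shift by 9 hybridization control probe sets, another variance prior, the mean of a gene's probe sets, and leaving out each array.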

Additional observations from a re-analysis of the deposited data

Results flagged for a closer look

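Among the probe sets of the 9 genes and of the gene lists and markers, 6 had drug effects that differed between 24 h and 72 h by the limma test of the difference itself. For the 9 genes this was 1 of 33 probe sets, where 2.21% of all probe sets on the array were called. Of the 18 measured targets 1 was called higher and 2 lower, and of the 4 fibroblast markers 3 were called higher. Among all genes 3.08% were called in either direction. Col1a1 is in both of these lists, and no gene of the other lists was called. The Klf13 probe set 1432543_a_at went from 0.58 at 24 h to 0.03 at 72 h, a difference of -0.55 (adjusted p = 0.0102). Cdkn1a went from 0.47 to -0.38, a difference of -0.85 (adjusted p = 0.00677). Lgals3 went from 0.60 to -0.21, a difference of -0.81 (adjusted p = 0.00202). Of the 4 fibroblast markers, 3 moved the other way. Dcn went from 0.56 to 2.50, a difference of 1.93 (adjusted p = 0.00231), and Lum from 0.27 to 2.27, a difference of 2.00 (adjusted p = 8.35e-05). The lowest difference of Dcn over the alternatives was 1.23. Col1a1 went from 0.02 to 0.91, a difference of 0.89 (adjusted p = 9.41e-04). The Lum and Col1a1 probe sets were dim in DMSO. All 6 differences kept their direction and their call under the 17 or 18 alternatives run for each. Groups of 3 arrays were too small for a search for single arrays that stand apart.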

How the results depend on the processing

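Under every alternative run, the drug comparisons kept their counts of called members within 1.5 times of 7 at 24 h and 5 at 72 h, and leaving out any 1 array gave 7 and 5 each time. For the difference of the drug effects, where no member was called, the replicate block called 1 (Klf4, adjusted p = 0.029), the filter on dim probe sets 2 (Klf4, 0.0461, and Klf13, 0.0401), the hybridization control shift 1 (Klf4, -0.82, 0.0176) and the mean of the probe sets 1 (Klf13, -0.36, 0.0396). Leaving out 1 array gave 0 to 1, with Klf13 called without 24 h DMSO replicate 3 (-0.51, 0.0167) and Klf4 without 72 h GDC-0623 replicate 1. The 72 h against 24 h count with GDC-0623 was 3 and ranged from 1 to 4 with 1 array left out. Values near 0 changed sign. The difference of effects became 0.020 for Klf7 after a second quantile normalization, -0.15 for Klf10 after the control shift and -0.088 for Klf6 with the mean of its probe sets. With time in GDC-0623 the control shift, which lowers all genes there by a median of 0.12, gave -0.063 for Klf2, -0.017 for Klf3 and -0.080 for Klf7, and the mean of the probe sets gave -0.033 for Klf7. Nr3c1 at 24 h became -0.011 with the mean of its probe sets. With 1 array left out, Klf6 at 24 h ranged from -0.0083 to 0.13 and Klf9 at 72 h from -0.13 to 0.39. Differences of effects ranged from -0.27 to 0.023 for Klf2, -0.11 to 0.12 for Klf7 and -0.042 to 0.068 for Klf10. Time differences in DMSO ranged from -0.073 to 0.44 for Klf6 and -0.018 to 0.092 for Klf7, and in GDC-0623 from -0.097 to 0.19 for Klf2, -0.042 to 0.21 for Klf3 and -0.058 to 0.16 for Klf7. Apart from Nr3c1, none of these was called as reported, and the causes were not tested. Small differences of list genes and further probe sets lost their call most often, under 9 of 13 alternatives for Vhl, 7 for Foxo3, Pdgfa and Nr3c1 (24 h) and 6 for Foxo1, Klf16 and Dcn (24 h). Of 12 alternatives, 9 lost the Klf3 probe set 1441200_at, 6 (24 h) and 7 (72 h) lost 1431630_a_at, and 8 and 7 lost the Klf9 probe sets 1422264_s_at and 1428288_at. Whether the replicate numbers paired the samples was not settled. Same-number pairs correlated between -0.036 and 0.289, 7 of 18 of them above 0.1. An array correlated best with its own number in another group in 29 of 36 cases, where each case offered 3 numbers. The main fits used no block, and the replicate block is given here alone. The block called 7, 5, 1, 6 and 4 members in the 24 h drug, 72 h drug, difference of effects, DMSO time and GDC-0623 time comparisons. In the GDC-0623 time comparison the block called Klf4 (0.0396) and Klf9 (0.0202) and lost Klf6 (0.0666). With the mean of the probe sets, Klf5 in DMSO over time was lost (-0.21, 0.0976) and Klf3 too (0.08, 0.343), and Klf6 was gained (0.52, 0.0407). In the same comparison Klf3 was lost in the 12-array fit (0.2) and after the control shift (0.0916), and Klf13 after the second quantile normalization (0.0585). The fit over 12 arrays was not run for the difference of effects, which already uses them. Dim probe sets, under 5 on most arrays, limit what can be said of them.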
